A study of Mus musculus with 2 samples.

Results

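The neurexins Nrxn2 and Nrxn3, the neuroligins Nlgn1, Nlgn2 and Nlgn3 and the leucine-rich repeat proteins Lrrtm1, Lrrtm2, Lrrtm3 and Lrrtm4 were followed by gene symbol through the single-nucleus RNA-seq count tables, where they are 9 of 27998 genes. WBRT-28d mice received whole brain radiation in 5 fractions of 2 Gy and were taken 28 days later. ShamRT-28d mice, described as mock-irradiated in the study and as untreated in the sample labels, were taken at the same time. All were females of the strain C57BL/6 in the sample labels and C57BL/6J in the study's methods, bought at 4 to 6 weeks of age, and each condition is 1 library of nuclei from the flash-frozen whole brains of 2 pooled mice. With 1 library per condition and no map from nuclei to mice, no test was made between the conditions, and the intervals below are 95% intervals that cover counting error only.

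Neurexins sit in the presynaptic membrane and reach across the synaptic cleft to bind neuroligins and LRRTMs in the postsynaptic membrane, and these pairs help to organize transmitter release on one side and receptor clusters on the other. Neuroligin 1 is known from excitatory synapses and neuroligin 2 from inhibitory ones, neuroligin 3 is found at both, and LRRTMs are known from excitatory synapses. Glia carry some of these proteins as well: astrocytes use neuroligins while they shape their fine processes, and oligodendrocyte precursor cells (OPCs) receive synapses from neurons.

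WBRT-28d held 15986 barcodes with 68423922 unique molecular identifiers (UMIs, each counting 1 captured RNA molecule) and ShamRT-28d held 11469 barcodes with 45511469 UMIs, at a median of 2565 and 2291 UMIs per barcode. After filtering and doublet removal, 14043 nuclei of WBRT-28d and 10342 of ShamRT-28d remained and were clustered without the members, and 21 classes had at least 50 nuclei in each library. Class names rest on marker genes and are to be read as "astrocyte-like", "OPC-like" and so on. Each fixed marker was higher in its class than in the other nuclei, except in the hippocampal CA class, where the pyramidal cell gene Wfs1 stood at 9.49 CPM in WBRT-28d and 20 in ShamRT-28d. That class is named weakly. The libraries shared 43 barcodes. Levels are CPM, the UMIs of a gene scaled to a fixed total of UMIs per class.

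The positions of the 9 genes (GRCm38, GENCODE vM21 annotation, not necessarily the annotation behind the counts) bear on their levels, since introns were counted. Nrxn3 (chromosome 12, 88722876 to 90334935, plus strand) spans 1612 kb, of which 0.782% is exonic. Nlgn1 (chromosome 3, 25426215 to 26332460, minus strand) spans 906 kb and Lrrtm4 (chromosome 6, 80018877 to 80810143, plus strand) 791 kb. Nrxn2 (chromosome 19, 6418731 to 6544169, plus strand) covers 125 kb. Nlgn2 (chromosome 11, 69823122 to 69837784, minus strand) covers only 14.7 kb, and Nlgn3 (chromosome X, 101299168 to 101325963, plus strand) 26.8 kb. Lrrtm2, on chromosome 18, is the shortest.

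The other 3 LRRTM genes are nested in alpha-catenin genes, which code for linkers between cadherins and actin, and lie on the opposite strand of their hosts. Lrrtm1 (chromosome 6, 77242689 to 77257791, plus strand, 15.1 kb) lies inside Ctnna2, Lrrtm3 (chromosome 10, 63928472 to 64090277, minus strand, 162 kb) inside Ctnna3, and Lrrtm2 (6.02 kb) inside Ctnna1. Nlgn1, Nrxn2 and Lrrtm4 in turn overlap counted genes on their own opposite strands. Whether the counting used strand is not given in the sources used here, so the values of nested and overlapping genes carry that uncertainty. Per kilobase of gene, neuronal levels fell within a narrow band: from 1.27 CPM per kb for Nlgn3 up to 4.56 for Lrrtm4 in WBRT-28d, and from 1.16 for Nrxn2 up to 4.22 for Nrxn3 in ShamRT-28d.

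RefSeq start-site windows (GRCm38.p6, 250 bases before to 50 after a start) were matched for 6 of the 9 members. A pair of them is printed as context for the gene that the largest neuronal difference below belongs to, Lrrtm4, and for Nlgn2, whose intervals overlapped across most neuron classes. In the Lrrtm4 window the capitals mark CAGCTG, an E box letter pattern, and in the Nlgn2 window they mark GGGCGG, a GC box pattern, both searched on both strands.
Lrrtm4, chr6:80018627-80018926, plus strand: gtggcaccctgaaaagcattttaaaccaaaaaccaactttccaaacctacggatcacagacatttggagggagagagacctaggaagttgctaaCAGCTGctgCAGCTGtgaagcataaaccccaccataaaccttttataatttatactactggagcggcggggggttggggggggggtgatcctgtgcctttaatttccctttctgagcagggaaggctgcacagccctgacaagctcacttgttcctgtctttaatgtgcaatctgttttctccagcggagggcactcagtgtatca
Nlgn2, chr11:69837735-69838034, minus strand: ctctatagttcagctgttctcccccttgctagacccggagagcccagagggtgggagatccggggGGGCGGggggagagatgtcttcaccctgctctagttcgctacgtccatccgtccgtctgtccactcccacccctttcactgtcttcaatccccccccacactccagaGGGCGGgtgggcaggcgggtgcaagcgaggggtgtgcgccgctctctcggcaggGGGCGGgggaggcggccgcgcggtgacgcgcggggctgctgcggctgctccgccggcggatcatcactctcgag
The first window holds 2 E box patterns and 4 CpG pairs at 48.7% GC. The second holds 3 GC box patterns and 26 CpG pairs at 68.7% GC, against a median of 7 CpG pairs and 52.7% GC over 32851 windows. CAGCTG occurs in 16.3% of these windows and GGGCGG in 35.7%, so that neither pattern is unusual. Among the members, CAGCTG was found for Nlgn2 and Lrrtm4 and GGGCGG for Nrxn3, Nlgn2 and Lrrtm1.

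**Figure D1:**
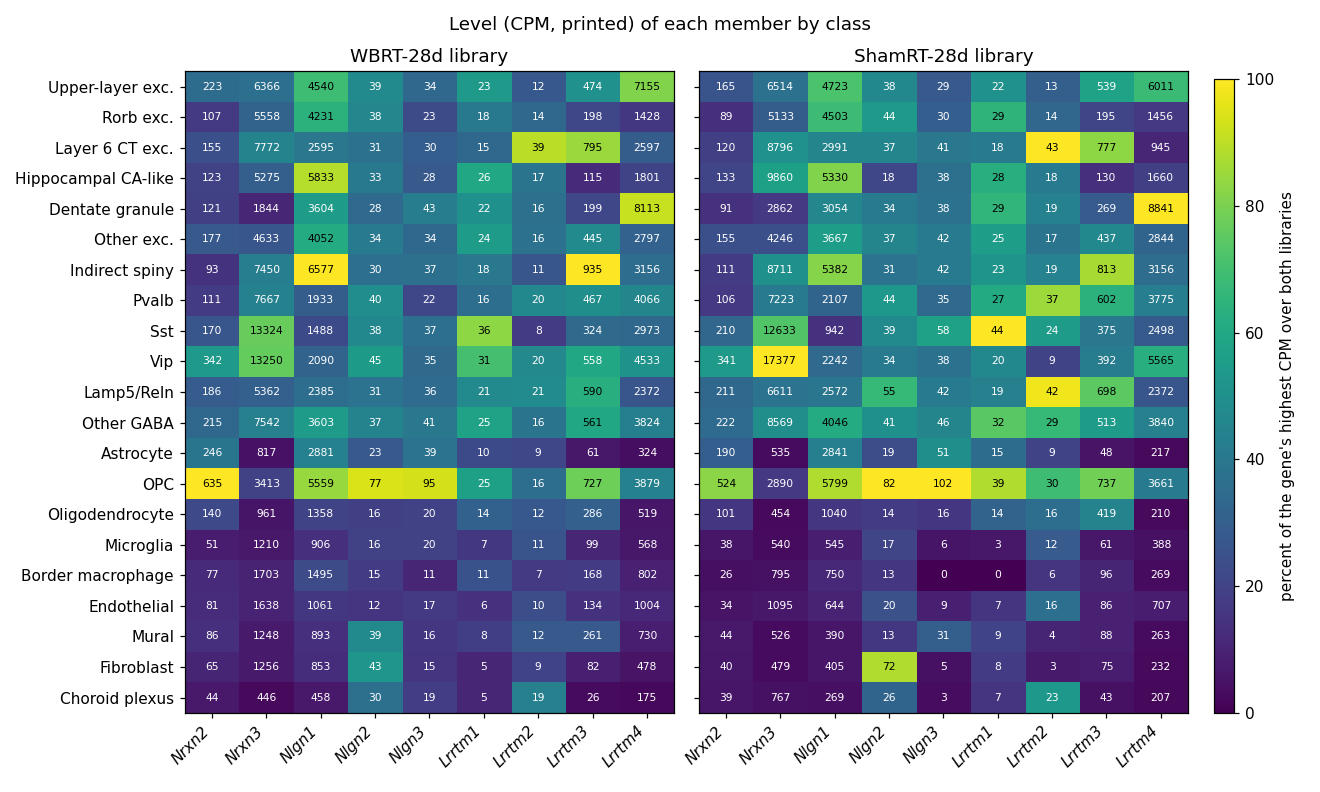
Level of each member (printed numbers, CPM) in every class of nuclei, WBRT-28d library left and ShamRT-28d library right; the shade gives the level in percent of that gene's highest CPM over both libraries. Nrxn3 peaks in Vip and Sst interneurons, Lrrtm4 in dentate granule neurons, and Nrxn2, Nlgn2 and Nlgn3 in OPCs.

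Of the presynaptic members, Nrxn3 was highest in Sst and Vip interneurons among the 21 compared classes. Immature neurons, too few in WBRT-28d for a comparison, are described at the end. It stood at 13324 CPM in WBRT-28d and 12633 in ShamRT-28d in Sst interneurons and at 13250 and 17377 CPM in Vip interneurons, which are inhibitory cells of cortex and hippocampus. In WBRT-28d the intervals of these leading classes overlapped, and in ShamRT-28d the Vip class was clear of the Sst class. Dentate granule neurons had the lowest Nrxn3 of any neuron class, with 1844 CPM in WBRT-28d and 2862 in ShamRT-28d. The lead of Vip nuclei over dentate granule nuclei was thus seen in both libraries.

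Nrxn2 was spread quite differently and led in a glial class. OPCs held 635 CPM in WBRT-28d and 524 in ShamRT-28d, ahead of Vip interneurons with 342 and 341 CPM, and in both libraries the interval of OPCs was clear of that of the next class. Astrocytes, with 246 CPM in WBRT-28d and 190 in ShamRT-28d, were above the mean of all neurons, at 167 and 145 CPM. Among neuron classes, indirect-pathway spiny neurons of the striatum were lowest in WBRT-28d, with 92.8 CPM against 111 in ShamRT-28d.

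The neuroligins also differed among themselves. Nlgn1 was highest in indirect-pathway spiny neurons of WBRT-28d (6577 CPM, against 5382 in ShamRT-28d) and in OPCs of ShamRT-28d (5559 CPM in WBRT-28d, 5799 in ShamRT-28d). Interneurons were at the low end: Sst nuclei held 1488 CPM in WBRT-28d and 942 in ShamRT-28d, the lowest of the neuron classes, and Pvalb nuclei 1933 and 2107. Sst nuclei were thus among the richest in Nrxn3 and the poorest in Nlgn1.

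Nlgn2, whose product binds the scaffold protein gephyrin at inhibitory synapses, gave 28.0 to 44.7 CPM across the neuron classes of WBRT-28d and 17.5 to 54.8 in those of ShamRT-28d, and the Poisson intervals of most neighbours overlapped at these counts. OPCs were above, at 77.3 CPM in WBRT-28d and 81.8 in ShamRT-28d. Nlgn3 also led in OPCs, with 95.2 CPM in OPCs of WBRT-28d and 102 in those of ShamRT-28d, against 34.0 and 38.7 CPM over all neurons. Fibroblasts came next for Nlgn2 in ShamRT-28d, with 43.0 CPM in WBRT-28d (45 UMIs) and 72.2 in ShamRT-28d (47 UMIs).

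Each LRRTM gene had its own place. Lrrtm4, a receptor known for binding heparan sulfate proteoglycans and for its role at dentate granule synapses, was highest in dentate granule neurons, with 8113 CPM in WBRT-28d and 8841 in ShamRT-28d, followed by upper-layer cortical neurons with 7155 and 6011. In WBRT-28d the order of these classes changed under some alternative settings, given below. Rorb cortical neurons, also excitatory, held only 1428 CPM in WBRT-28d and 1456 in ShamRT-28d. Lrrtm4 and Nrxn3 were thus at opposite ends in dentate granule nuclei.

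Lrrtm3 led in indirect-pathway spiny neurons (935 CPM in WBRT-28d, 813 in ShamRT-28d) and layer 6 corticothalamic neurons (795 and 777 CPM), with OPCs next at 727 and 737 CPM. It was low in hippocampal CA nuclei, at 115 CPM in WBRT-28d and 130 in ShamRT-28d. Lrrtm2 was highest in layer 6 corticothalamic neurons in both libraries, at 38.5 CPM in WBRT-28d and 43.0 in ShamRT-28d. Lrrtm1 was highest in Sst interneurons, at 36.4 CPM in WBRT-28d (38 UMIs) and 43.7 in ShamRT-28d (39 UMIs), although for both of these short genes the interval of the leading class overlapped that of the next.

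Across the 21 classes and both libraries (42 points, which share class definitions, depth and free RNA, so that the values are a description), the members resembled each other to unequal degrees. On log2(CPM + 10), Pearson's r was 0.84 between Nrxn2 and Nlgn3 and 0.83 between Nrxn3 and Lrrtm4, and 0.32 between Nlgn1 and Lrrtm2. Of 9420 genes with at least 1000 UMIs, those most like Nrxn3 were Ptprn2 (r = 0.95), Meg3 (0.94) and Myt1l (0.93). Nlgn1 was closest to Kcnd2, Gria2 and Adgrb1 (0.89 each), and Lrrtm4 to Susd4 and Ppfia2 (0.92 each) and Sntg1 (0.91).

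For Nlgn3 the nearest genes were Grid1 and Map2 (0.85 each), followed by Nrxn2. Lrrtm3 was nearest to Anks1b (0.87), Lrrtm1 to Slitrk3 (0.87), Nlgn2 to Pknox2 (0.75) and Lrrtm2 to Nup210 (0.70). The nested genes differed in their likeness to their hosts: r was 0.84 for Lrrtm1 and Ctnna2, 0.78 for Lrrtm3 and Ctnna3, and -0.41 for Lrrtm2 and Ctnna1.

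Between the conditions, the summed neurons gave CPM ratios of WBRT-28d to ShamRT-28d near 1 for the long genes: 1.0 for Nrxn3 (1.0 to 1.01), 1.05 for Nlgn1 (1.04 to 1.06), 0.99 for Lrrtm3 (0.97 to 1.01) and 1.09 for Lrrtm4 (1.08 to 1.10). Nrxn2 stood at 1.15 (1.10 to 1.20). The short genes were lower in WBRT-28d neurons, at 0.71 for Lrrtm2 (0.63 to 0.80, 492 and 635 UMIs), 0.84 for Lrrtm1 (0.75 to 0.93) and 0.88 for Nlgn3 (0.81 to 0.96), while the interval of Nlgn2 spanned 1 at 0.92 (0.85 to 1.01). None of the 9 passed a ratio of 1.5 either way in all neurons, where 5.95% of all genes measured with 50 UMIs or more were higher and 7.08% lower past that fold.

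The neuron total also hides a difference in make-up. Nrxn3 was lower in WBRT-28d in the summed excitatory classes, at 5374 CPM against 5790 in ShamRT-28d (ratio 0.93, 0.92 to 0.94), and in the summed GABA classes, at 8450 against 9633 (0.88, 0.87 to 0.89), but equal over both, since the GABA classes, the richer in Nrxn3, gave 14202007 of 30221366 neuronal UMIs in WBRT-28d and 7315549 of 27615692 in ShamRT-28d. Lrrtm2 was lower in the summed GABA classes, at 14.7 CPM in WBRT-28d and 25.7 in ShamRT-28d (0.57, 0.47 to 0.70), the 1 member lower past 1.5-fold there, as were 6.94% of genes. In the summed excitatory classes its ratio was 0.81 (0.69 to 0.94) and no member passed, beside 5.31% of genes higher and 7.46% lower.

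**Figure D2:**
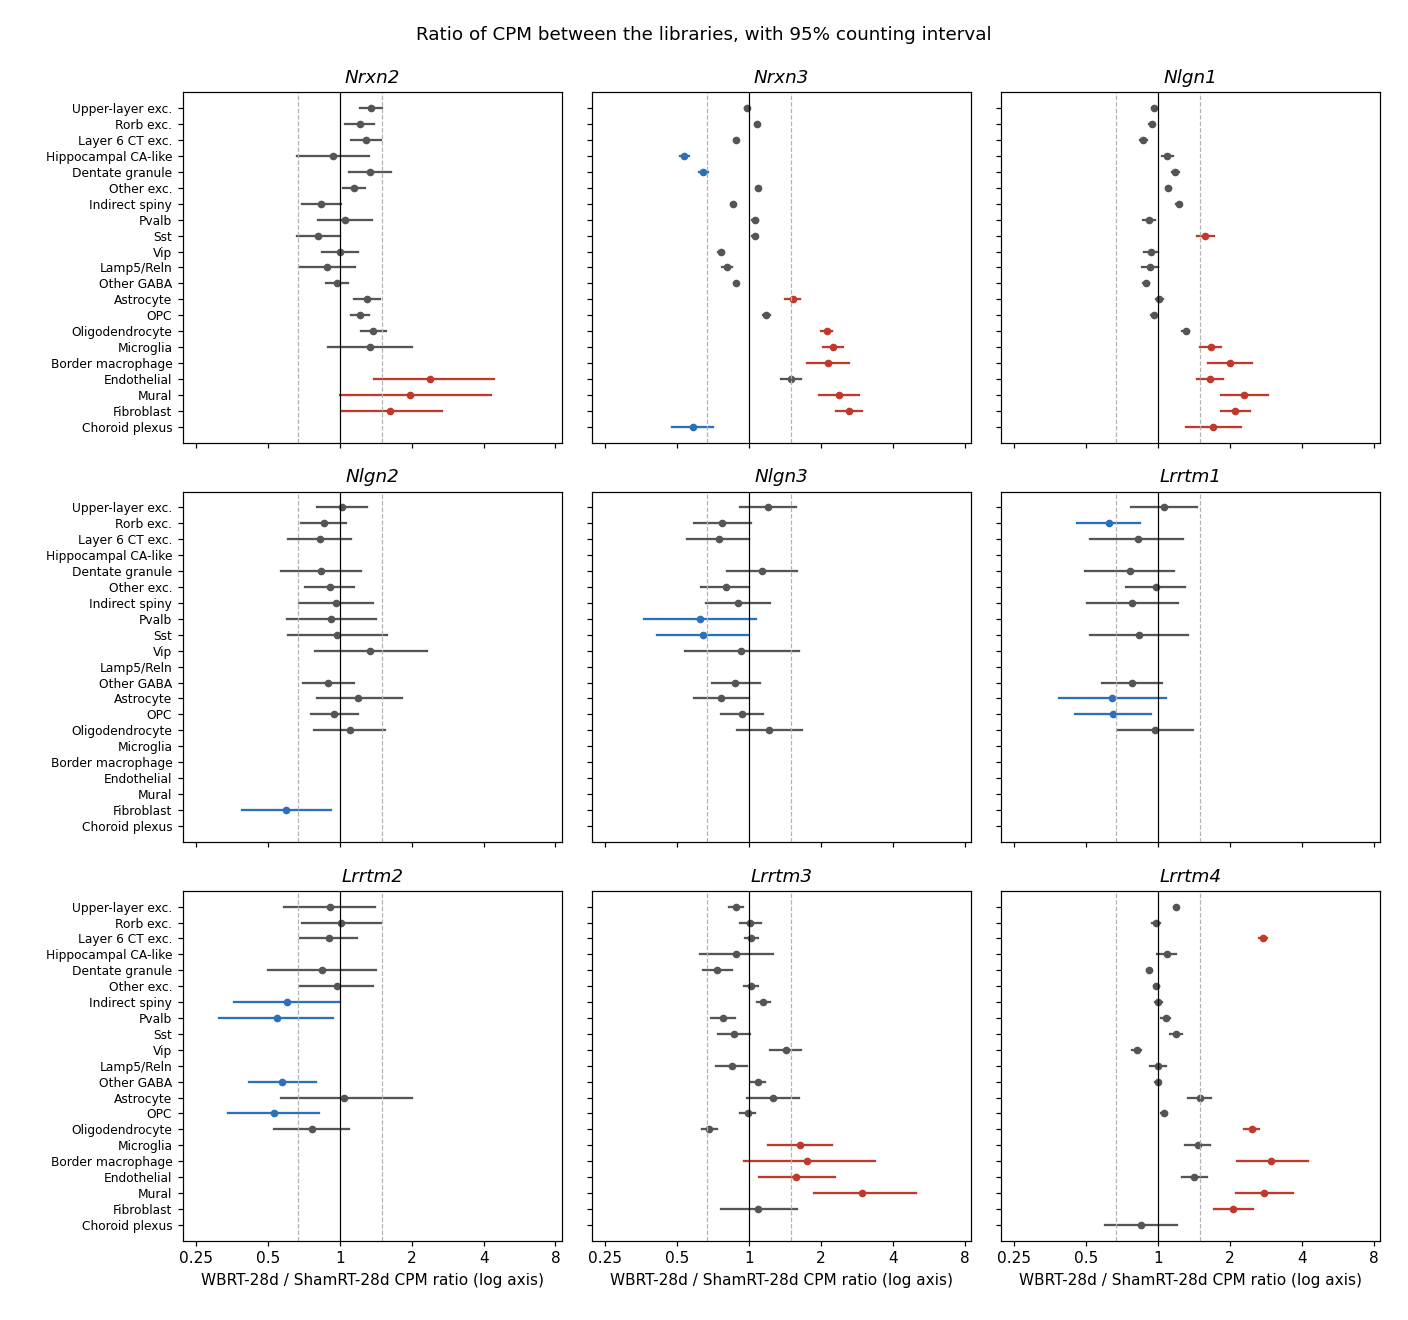
Ratio of CPM in WBRT-28d to that in ShamRT-28d (log axis) for each member in every class with enough UMIs; points are the ratio and bars the 95% counting interval, dashed lines mark 1.5-fold, and red and blue mark ratios past it on the higher and lower side. Lrrtm4 in layer 6 corticothalamic nuclei is the highest of the neuronal ratios (2.75) and Nrxn3 in hippocampal CA nuclei the lowest (0.53).

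By class, members past 1.5-fold with 50 or more UMIs were few among excitatory neurons. Layer 6 corticothalamic neurons had 1 member higher of 9 (8.35% of all genes measured there were higher), dentate granule neurons 1 lower of 9 (6.36% of genes lower), hippocampal CA neurons 1 lower of the 5 measured (8.03%) and Rorb neurons 1 lower of 9 (6.24%). Upper-layer neurons had 0 of 9 (6.01% of genes higher and 6.52% lower), as did other excitatory neurons (5.36% and 10.8%). A single member among 9 is near the background of these classes.

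Inhibitory classes had 0 to 2 members past the fold. Sst interneurons had 1 member higher of 8 (7.33% of genes) and 1 lower (9.03%), Pvalb interneurons 2 lower of 8 (7.06%), indirect-pathway spiny neurons 1 lower of 9 (6.90%) and other GABA neurons 1 lower of 9 (7.75%). Vip interneurons had 0 of 7 (5.70% of genes higher and 6.91% lower) and Lamp5 interneurons 0 of 5 (7.13% and 8.41%). Of the lower ones, 3 were Lrrtm2, in Pvalb (0.55, 0.31 to 0.94), other GABA (0.57, 0.41 to 0.79) and indirect-pathway spiny neurons (0.60, 0.36 to 1.0), and 2 were Nlgn3, in Pvalb (0.63, 0.36 to 1.07) and Sst nuclei (0.64, 0.41 to 0.99), the best counted of them on 91 UMIs in WBRT-28d and 70 in ShamRT-28d. Lrrtm1 in Rorb neurons (17.7 CPM in WBRT-28d, 28.5 in ShamRT-28d, ratio 0.62, 0.46 to 0.84) was the excitatory case among the short genes. In nuclei under 3000 UMIs the ratios of Nlgn3 in Pvalb and Sst nuclei and of Lrrtm2 in spiny neurons lay above 1, at 1.45, 1.38 and 1.07. The other GABA class pools unlike clusters, with 516, 350, 284 and 0 nuclei in WBRT-28d and 166, 89, 77 and 103 in ShamRT-28d. The part of this make-up in its ratios was not tested.

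The largest neuronal difference was that of Lrrtm4 in layer 6 corticothalamic nuclei, at 2597 CPM in WBRT-28d (5121 UMIs in 464 nuclei) and 945 CPM in ShamRT-28d (4220 UMIs in 619 nuclei), a ratio of 2.75 (2.64 to 2.86). The class was made of 2 clusters. In the deeper one, with 168 nuclei of WBRT-28d and 394 of ShamRT-28d, the levels were 2747 and 884 CPM, and in the shallower one, with 296 and 225 nuclei, 2280 and 1599 CPM, so that the ratio was 3.11 in the first and 1.43 in the second. Lrrtm4 was higher in WBRT-28d in both.

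The distribution over nuclei of the deeper cluster was wide. The median nucleus held 1150 CPM of Lrrtm4 in WBRT-28d and 569 in ShamRT-28d, while the upper quartile lay at 4483 and 1330 CPM. Nuclei at or above 3000 CPM, a level chosen after seeing the data, made up 54 of 168 in WBRT-28d (32.1%, 25.2 to 39.8, exact Clopper-Pearson) and 19 of 394 in ShamRT-28d (4.82%, 2.93 to 7.43). In the shallower cluster they made up 61 of 296 (20.6%, 16.1 to 25.7) and 27 of 225 (12%, 8.06 to 17.0), with intervals that overlap. These intervals treat nuclei of 1 library as units and cover counting error only.

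Markers moved beside this result. The layer 6 genes with the most UMIs were lower in the WBRT-28d class, with Foxp2 at 620 CPM against 767 in ShamRT-28d, Tle4 at 492 against 690 and Hs3st4 at 3190 against 3694. Markers of upper-layer neurons, a class rich in Lrrtm4, reached 8.4% of their home level there in WBRT-28d and 2.6% in ShamRT-28d (3 markers summed), and those of dentate granule neurons 4.7% and 1.5%. Their part in the result was not tested. Deeper-cluster nuclei were also split at 4000 CPM of the 3 named layer 6 genes summed, after seeing the data. Those at or above it (92 in WBRT-28d and 279 in ShamRT-28d) held Lrrtm4 at 2730 and 864 CPM. The others (76 and 115) held Lrrtm4 at 2773 and 944 CPM. This split does not test the part of other classes in the result. Of the 8 measured heparan sulfate proteoglycans and related genes, a group that holds ligands of LRRTM4, 2 were higher past the fold in the same class. Of all genes measured there, 8.35% were. The median log2 ratio over the 8 was -0.06. The 2, named after their values were seen, were Gpc5 at 156 CPM against 20.2 (ratio 7.75, 6.11 to 9.91) and Gpc6 at 194 against 43.9 (4.41, 3.70 to 5.27). Their relation to the Lrrtm4 value was not tested. Gpc5 was most abundant in astrocytes, whose 7 markers summed to 3.6% of their home level in layer 6 nuclei of WBRT-28d and 1.5% in those of ShamRT-28d, and their part in its value was not tested.

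**Figure D3:**
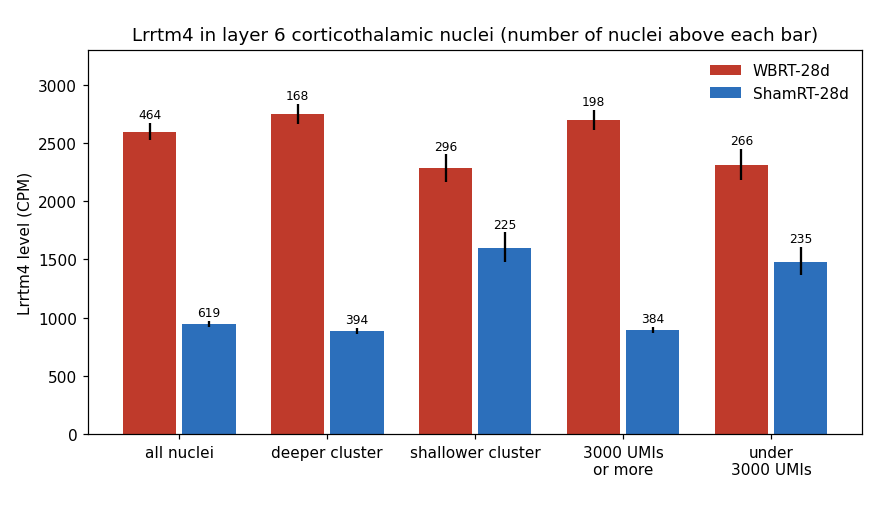
Lrrtm4 level (CPM, bars from 0, with 95% Poisson interval and the number of nuclei above) in the layer 6 corticothalamic class, in its 2 clusters and in nuclei on either side of 3000 UMIs, WBRT-28d left of ShamRT-28d in each pair. WBRT-28d is higher in every split, at 2695 against 894 CPM in nuclei of 3000 UMIs or more and 2309 against 1480 CPM below.

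Nrxn3 was lower in both hippocampal classes. Dentate granule nuclei gave 1844 CPM in WBRT-28d (3361 UMIs) and 2862 in ShamRT-28d (5453 UMIs), a ratio of 0.64 (0.62 to 0.67), which split into 0.57 in the deeper cluster and 0.85 in the shallower. Of the 5 dentate markers, Prox1 and Glis3 were higher in WBRT-28d, at 274 and 845 CPM against 224 and 643, Dsp and Dock10 were level (ratio 1.0 each), and Stxbp6 was lower, at 925 against 1240 CPM (0.75, 0.70 to 0.79). Of the markers of the weakly named CA class, Fibcd1 was higher in WBRT-28d (ratio 3.09, 1.46 to 7.52, 52 and 8 UMIs). The intervals of Mpped1, Wfs1, Ociad2 and Slc17a7 spanned 1. Nrxn3 in this class was at 5275 and 9860 CPM (0.53, 0.51 to 0.56), and in its nuclei under 3000 UMIs the ratio was 0.79. Whether a difference in class make-up added to the Nrxn3 ratio was not tested. By contrast, Nlgn1 was higher in WBRT-28d in both hippocampal classes, though below 1.5-fold, at 3604 CPM against 3054 in dentate granule nuclei (1.18, 1.14 to 1.22) and 5833 against 5330 in CA nuclei (1.09, 1.04 to 1.15). Lrrtm3 in dentate granule nuclei was lower, at 199 against 269 CPM (0.74, 0.64 to 0.85).

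Nlgn1 in Sst interneurons was past the fold on the higher side, at 1488 CPM in WBRT-28d (1555 UMIs) and 942 in ShamRT-28d (840 UMIs), a ratio of 1.58 (1.45 to 1.72). The result rested on the deep nuclei: the ratio was 1.78 in those of 3000 UMIs or more and 0.81 in the others. The class itself differed between the libraries, since Sst was at 469 CPM in WBRT-28d and 3076 in ShamRT-28d, with Npy at 62.2 and 388 CPM, and markers of indirect-pathway spiny neurons, which are rich in Nlgn1, reached 39.8% of their home level there in WBRT-28d and 22.6% in ShamRT-28d. Their part was not tested.

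Vip interneurons combined lower Nrxn3 (0.76, 0.74 to 0.78) and lower Lrrtm4 (4533 against 5565 CPM, 0.81, 0.78 to 0.85) with higher Lrrtm3 (558 against 392 CPM, 1.42, 1.23 to 1.66), all short of 1.5-fold. Nrxn2 in the same nuclei was level at 1.0 (0.84 to 1.19). In upper-layer neurons, Nrxn2 stood at 223 CPM in WBRT-28d and 165 in ShamRT-28d (1.35, 1.22 to 1.51) and Lrrtm4 at 1.19 (1.17 to 1.21), while Nrxn3 and Nlgn1 were at 0.98 and 0.96. No member was higher or lower in every neuron class.

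In glia, levels have to be read against RNA released from neurons, which can enter any droplet. The 10 neuron genes used for this purpose reached, as a sum, 11.2% of their neuronal CPM in astrocytes of WBRT-28d and 7.3% in those of ShamRT-28d, 14.0% and 8.5% in OPCs, 17.2% and 7.8% in oligodendrocytes and 20.2% and 9.6% in microglia. None of the 10 was at 0 in these classes. The highest of them was Nefl, a short neurofilament gene, at 61.1% and 36.4% in astrocytes, 49.7% and 26.0% in OPCs and 85.6% and 51.4% in oligodendrocytes. The neuron genes summed were thus higher in WBRT-28d in each of these 4 classes, and their shares were unequal between genes. This signal is called free neuronal RNA here. The part in it of doublets with a neuron that escaped removal was not tested. Called doublets made up 10.2% of WBRT-28d barcodes and 6.09% of ShamRT-28d barcodes.

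In OPCs all 9 members stood above the summed free RNA and above Nefl in both libraries. Nrxn2 was at 380% of its neuronal level in WBRT-28d and 361% in ShamRT-28d, Nlgn3 at 280% and 263%, Nlgn2 at 220% and 215%, Lrrtm3 at 151% and 152% and Nlgn1 at 144% and 158%. The lowest, Nrxn3, was at 50.1% and 42.4%. Between the conditions, Nlgn1, Nlgn2, Nlgn3, Lrrtm3 and Lrrtm4 gave ratios of 0.94 to 1.06 in OPCs, Nrxn3 1.18 (1.14 to 1.22) and Nrxn2 1.21 (1.11 to 1.32). The members past 1.5-fold were the short LRRTM genes, 2 lower of 9 beside 5.95% of all genes: Lrrtm1 at 24.9 CPM in WBRT-28d and 38.5 in ShamRT-28d (0.65, 0.45 to 0.93) and Lrrtm2 at 15.6 and 29.6 (0.53, 0.34 to 0.82).

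Astrocytes held Nrxn2 at 147% of the neuronal level in WBRT-28d and 131% in ShamRT-28d, Nlgn3 at 114% and 131%, Nlgn1 at 74.7% and 77.2% and Nlgn2 at 65.4% and 50.7%, all above Nefl. Nlgn1 was level between the conditions, at 2881 and 2841 CPM (1.01, 0.98 to 1.05), although free neuronal RNA was higher in WBRT-28d. Nrxn2 was higher, at 1.29 (1.14 to 1.46), and Nlgn3 lower, at 38.8 against 50.6 CPM (0.77, 0.59 to 1.0). In astrocytes Nrxn3, Lrrtm3 and Lrrtm4 were at 0.80 to 1.37 times the level that free RNA predicts and within the range of the 10 neuron genes. They cannot be told apart from free RNA there. Of 9 members 1 was higher past the fold (7.25% of genes) and 1 lower (7.62%). These were Nrxn3 (1.53, 1.42 to 1.64) and Lrrtm1 with 40 and 28 UMIs (0.64, 0.39 to 1.08).

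**Figure D4:**
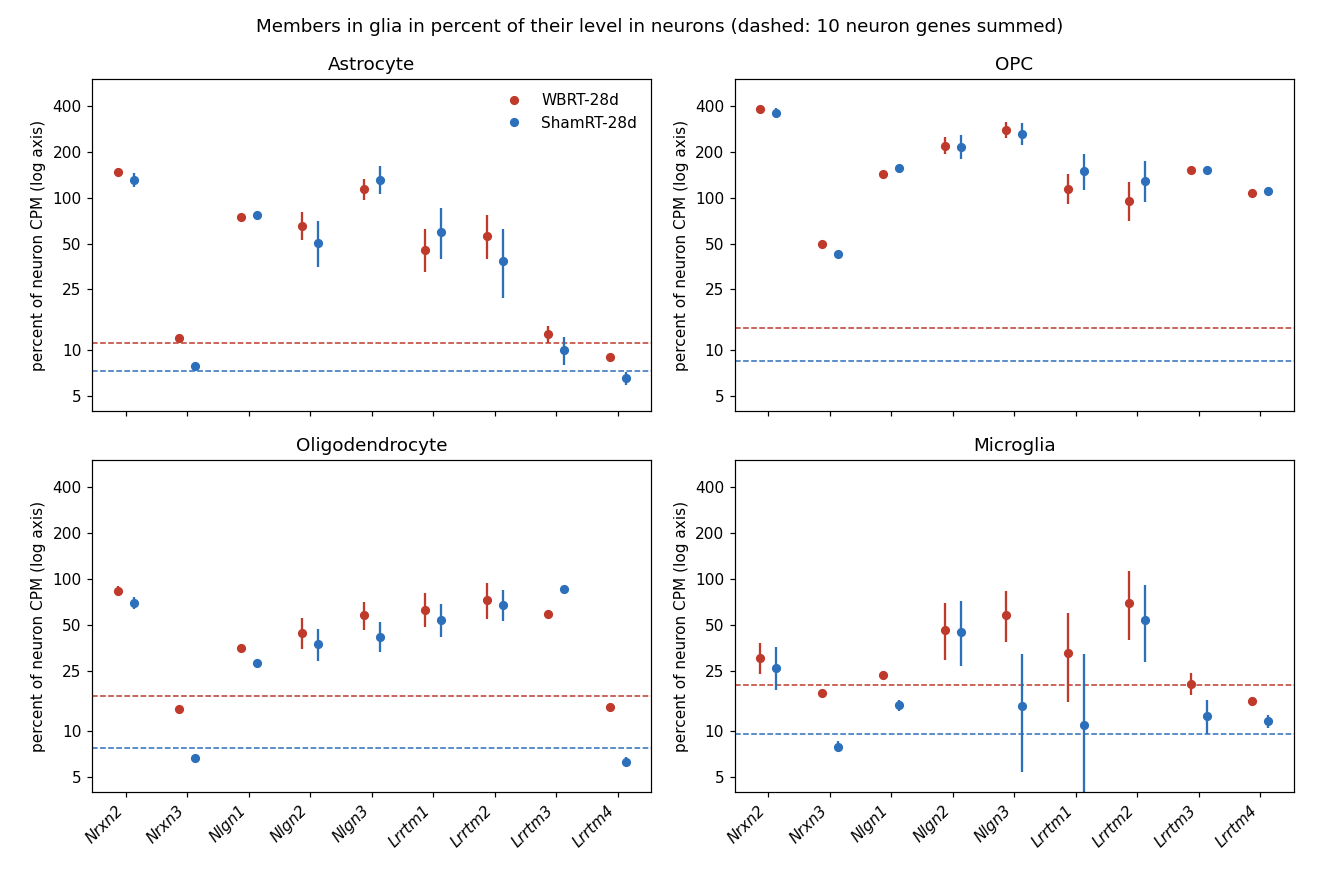
Level of each member in glial classes in percent of its CPM over all neurons of the same library (log axis), with 95% counting intervals, WBRT-28d left of ShamRT-28d; dashed lines give the 10 neuron genes summed. All 9 members lie above the lines in OPCs, while Nrxn3 and Lrrtm4 lie on or near them in astrocytes, oligodendrocytes and microglia.

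Oligodendrocytes held Lrrtm3 above the summed free-RNA prediction, at 59.3% of the neuronal level in WBRT-28d and 86.1% in ShamRT-28d, or 3.46 and 11.1 times the predicted level. It lay below the highest neuron gene, Nefl, in WBRT-28d (85.6%) and above it in ShamRT-28d (51.4%). Lrrtm3 was lower in WBRT-28d, at 286 CPM (1324 UMIs) against 419 CPM (2043 UMIs), a ratio of 0.68 (0.64 to 0.73) that fell just short of 1.5-fold and was 0.70 and 0.72 in the 2 oligodendrocyte clusters. Its host Ctnna3, read from the other strand, had 1697 CPM in WBRT-28d and 2008 in ShamRT-28d (0.85, 0.82 to 0.87). The myelin gene Mog was lower too, at 835 CPM in WBRT-28d against 1144 CPM in ShamRT-28d, while Mbp was at 4127 against 4298 CPM. Free neuronal RNA in these nuclei was higher in WBRT-28d.

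The members past the fold in oligodendrocytes, 2 higher of 9 beside 13.2% of genes, were Nrxn3 at 961 against 454 CPM (2.12, 2.01 to 2.23) and Lrrtm4 at 519 against 210 CPM (2.47, 2.29 to 2.66). Both stood at 0.81 to 0.86 times the level predicted from free RNA in either library. At that level they cannot be told apart from free RNA, and no difference of the oligodendrocytes themselves is read from them. Nlgn1, at 2.05 and 3.63 times the predicted level, and Nrxn2, at 4.88 and 8.97 times, were above it, with Nrxn2 at 140 CPM in WBRT-28d and 101 in ShamRT-28d (1.38, 1.22 to 1.55). The short genes Nlgn2, Nlgn3, Lrrtm1 and Lrrtm2 also passed the summed prediction. In WBRT-28d, however, all 9 members, Nrxn2, Nlgn1 and Lrrtm3 included, lay below Nefl as a share of the neuronal level.

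Microglia, vascular cells, border macrophages and fibroblasts had several members higher past the fold. In microglia 3 of the 5 measured members were higher past the fold (all genes: 12.1%), in border macrophages 4 of 4 (16.2%), in endothelial cells 3 of 5 (13.4%), in mural cells 5 of 5 (20.6%) and in fibroblasts 4 of 6 (9.78%) with 1 lower (6.31%). Free neuronal RNA stood at 26.3% in border macrophages of WBRT-28d and 10.4% in those of ShamRT-28d, at 28.5% and 14.6% in endothelial cells, at 23.9% and 11.7% in mural cells and at 24.6% and 15.8% in fibroblasts. Nrxn3 was between 0.45 and 1.12 times the predicted level in these 5 classes, and Lrrtm4 was between 0.44 and 1.46 times. The higher values of Nrxn3 in WBRT-28d cannot be told apart from free RNA. Nlgn1, also higher in WBRT-28d in each of them, was between 0.70 and 1.96 times, and its ratio in endothelial cells lay below 1 when nuclei were gated singly by markers (0.765). Nrxn2 was between 1.5 and 2.74 times the predicted level in these classes and Lrrtm3 between 0.69 and 2.27 times, the highest being Lrrtm3 in mural cells of WBRT-28d and Nrxn2 in microglia of ShamRT-28d. None of these values of Nlgn1, Nrxn2 and Lrrtm3 exceeded that of the highest of the 10 neuron genes in its class and library.

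In the choroid plexus, 1 of 3 measured members was higher (10.5% of genes) and 1 lower (7.96%), with free RNA at 9.8% in WBRT-28d and 12.5% in ShamRT-28d. Nrxn3 was below the predicted level in both. Fibroblasts were the exception for Nlgn2, which was at 122% of its neuronal level in WBRT-28d and 190% in ShamRT-28d, above Nefl at 99.8% and 36.3%, and was lower in WBRT-28d (0.60, 0.39 to 0.92). Over the 21 classes, 25 of the members' measured values were higher past the fold and 13 lower, and 20 of the 25 higher ones lay in border macrophages, mural cells, fibroblasts, microglia, endothelial cells and choroid plexus. The share over all genes is given class by class above, and none was computed for these totals.

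The known partners of the members were described from lists of 68 genes. Among the other neurexin ligands, well-measured ones included Adgrl3, a latrophilin, Clstn2, a calsyntenin, and Nxph1, a neurexophilin that binds alpha-neurexins. In all neurons, 1 of 16 ligands was higher past 1.5-fold (5.95% of all genes), Cbln4 at 6.55 against 4.09 CPM (1.6, 1.26 to 2.04). Lower past the fold were 4 (7.08% of all genes), Cbln1, Cbln2, Nxph3 and C1ql3. C1ql3 was the best counted of them, at 30.9 CPM in WBRT-28d and 71.8 in ShamRT-28d (0.43, 0.40 to 0.47). In OPCs, Nxph1 was at 3146 CPM in WBRT-28d and 3018 in ShamRT-28d (1.04).

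The other lists are read in all neurons against the same 5.95% of all genes higher and 7.08% lower. The intracellular adaptors of neurexins gave 0 of 7 past the fold, with Cask at 225 and 222 CPM and the sorting receptor Sorcs1 at 448 and 434. Of 14 scaffolds and regulators of neuroligins 1 was higher, Mdga1, which blocks neuroligin 2 from binding neurexins, at 33.6 against 11.9 CPM (2.82, 2.49 to 3.21). Of 9 heparan sulfate proteoglycans and related genes 1 was higher, Gpc5 at 243 against 101 CPM (2.39, 2.29 to 2.50). Astrocytes held Gpc5 at 11734 CPM in WBRT-28d and 9431 in ShamRT-28d. Whether their RNA added to the neuronal value was not tested. Of 22 other leucine-rich repeat organizers and receptors 1 was lower, Slitrk1 at 13.7 against 22.7 CPM (0.60, 0.53 to 0.68).

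By class, counts of partners past the fold are read against the share of all genes. In mural cells 20 of 40 were higher (20.6% of all genes) and 4 lower (9.59%), and in border macrophages 12 of 22 were higher (16.2%) and 1 lower (13.4%). In OPCs 3 of 58 measured partners were higher past the fold (Adgrl2, Dlg3 and Ntng2; 6.76% of all genes) and 0 lower (5.95%; median log2 ratio 0.05 over all 58, against 0.01 over all genes), and in astrocytes 8 of 55 were higher (7.25%) and 2 lower (7.62%; median 0.20, against -0.02), with Nxph1 (2.67, 1.89 to 3.87) and Lrfn5 (2.27, 1.84 to 2.83) leading. In oligodendrocytes 24 of 56 were higher (13.2%) and 0 lower (4.96%; median 0.39, against 0.02), in the class where Nrxn3 and Lrrtm4 lay at the free-RNA level. Free neuronal RNA was higher in WBRT-28d in astrocytes, mural cells and border macrophages too, as in OPCs. Partners were not weighed against it, so its part in the counts of these non-neuronal classes was not tested. In dentate granule neurons 7 of 58 were higher (7.80%) and 4 lower (6.36%), and in indirect-pathway spiny neurons 11 of 55 were higher (11.9%) and 3 lower (6.90%). Sst interneurons had 9 of 51 higher (7.33%) and 7 lower (9.03%). In layer 6 corticothalamic neurons 5 of 59 were higher (8.35%) and 5 lower (7.12%), and in Vip interneurons 2 of 47 were higher (5.70%) and 4 lower (6.91%), counts near the background.

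The hosts of the nested genes differed from their guests. Ctnna3 was lower in all neurons of WBRT-28d, at 366 CPM against 514 (0.71, 0.69 to 0.73), where Lrrtm3 stood at 0.99. Ctnna1 was level at 27.2 and 27.3 CPM, where Lrrtm2 stood at 0.71, and Ctnna2 was at 1985 and 1907 CPM (1.04), where Lrrtm1 stood at 0.84. Per kilobase, Lrrtm2 exceeded Ctnna1 in neurons (2.70 and 3.82 CPM per kb against 0.2 and 0.2), and Lrrtm1 lay below Ctnna2 (1.43 and 1.71 against 1.81 and 1.74).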

How the data were processed

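Nuclei of 2 libraries, 1 per condition, were analysed. The authors aligned reads to mm10 with Cell Ranger 5.0.0, using an own reference of unspliced transcripts, and deposited raw UMI counts per gene and barcode, with no annotation of nuclei. The submitters' notes also name Seurat 3.0 and R 3.5.3. Barcodes below 500 detected genes or above 5% mitochondrial UMIs were left out, 0 and 318 of WBRT-28d and 326 and 107 of ShamRT-28d. Scrublet doublets (10.2% and 6.09%) were removed. Counts were log-normalized, and 2000 variable genes without members and partners, 30 principal components and 20 neighbors were clustered at a resolution of 0.8, then neurons again at 1.6 (Python 3.11.15, scanpy 1.11.5, igraph 0.11.9, scipy 1.17.1). The thresholds for naming clusters were chosen with the clusters in view and left 5.04% of WBRT-28d and 2.23% of ShamRT-28d nuclei unnamed.

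UMIs were summed per class and library. Level intervals are exact Poisson and ratio intervals exact conditional binomial. A gene counted as measured with 50 UMIs over both libraries and as past the fold at a ratio of 1.5 or its inverse. The free-RNA prediction is a gene's neuronal CPM times the percentage of 10 neuron genes summed. The interval code was tested on simulated data. Members and lists were chosen with earlier results of these data known. Named are all members, their hosts, up to 4 partners per list with the most UMIs, partners past the fold in the classes described, and the 3 genes of most similar pattern. The glypicans Gpc5 and Gpc6 in layer 6 neurons were chosen after their values were seen. Values of some other listed genes are not reported here.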

Additional observations from a re-analysis of the deposited data

How the results depend on the processing

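No paired analysis was possible because each condition has 1 library. The alternatives kept all deposited barcodes or doublets, changed the clustering, gated nuclei singly by markers, changed the scaling or weighted nuclei equally. Splits at 3000 UMIs, splits by cluster and a neuron resolution of 0.8 were added after seeing the data. The ratio of Lrrtm4 in layer 6 corticothalamic neurons was 2.54 with doublets kept, 2.39 with all barcodes, 2.50 at resolution 0.4, 2.10 under the gate, 2.63 with median-of-ratios scaling, 2.28 with equal weights, 3.02 and 1.56 at and below 3000 UMIs, and 3.11 and 1.43 in the 2 clusters. For Nrxn3 in CA neurons it was 0.596 with doublets kept, 0.612 with all barcodes, 0.568 at resolution 0.4, 0.604 with members among the variable genes, 0.595 at the neuron resolution of 0.8, 0.639 with equal weights and 0.794 below 3000 UMIs. For Nrxn3 in dentate granule neurons it was 0.609 with all barcodes, 0.616 at resolution 1.6, 0.761 under the gate, 0.711 with equal weights, 0.604 and 0.750 at and below 3000 UMIs, and 0.853 and 0.565 in the 2 clusters. For Nlgn1 in Sst neurons it was 1.44, 2.22 and 1.25 with all barcodes, the gate and equal weights, and 1.78 and 0.813 at and below 3000 UMIs. For Lrrtm3 in oligodendrocytes it was 0.783 under the gate and 0.636 with equal weights.

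Ratios that crossed 1 were Nrxn3 in the choroid plexus (1.02, 1.54 and 2.24 with doublets kept, the gate and equal weights), Nlgn1 under the gate in endothelial cells (0.765) and choroid plexus (0.901), and below 3000 UMIs Lrrtm2 in spiny neurons (1.07) and Nlgn3 in Pvalb (1.45) and Sst (1.38) neurons. Against 25 values of a member in a class higher and 13 lower past the fold, the lower count was 3 under the gate, 4 below 3000 UMIs and 20 at a minimum of 20 UMIs. No share over all genes was computed for these alternative counts. Nuclei of 3000 UMIs or more gave 10 higher and 8 lower, and a 2-fold limit 14 and 0. The leading class of a member was kept in 9 of 18 cases under the gate. For Lrrtm4 in WBRT-28d, upper-layer neurons led with members among the variable genes, at the neuron resolution of 0.8 and in nuclei of 3000 UMIs or more. Leads of Nrxn3, Nlgn1, Lrrtm1 and Lrrtm2 also changed in alternatives other than the gate. Median-of-ratios scaling shifted all genes by over 0.1 (log2) in border macrophages (0.23) and mural cells (0.15). The cause of these changes was not tested. Depth limits the short genes most: Lrrtm2 gave 691 UMIs in WBRT-28d and 810 in ShamRT-28d over all named classes.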

Other observations

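Neuron classes too small in a library for a comparison held the following levels. Immature neurons were 4 nuclei in WBRT-28d and 119 in ShamRT-28d, where Nrxn3 stood at 13960 and 23336 CPM, Nlgn1 at 1574 and 1243 CPM and Lrrtm4 at 1889 and 864 CPM. In neurons with the dopamine receptor gene Drd3 (206 and 14 nuclei), Nrxn3 was at 10365 and 11157 CPM. No ratio is given for either class.

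Nlgn3, the member on chromosome X, was followed in an excitatory cluster chosen after its values were seen, with 159 nuclei of WBRT-28d and 145 of ShamRT-28d. X-linked genes took 7.23% of its UMIs in WBRT-28d and 8.97% in ShamRT-28d, against 1.75% to 2.94% in the other excitatory clusters. Nlgn3 stood at 108 CPM there in WBRT-28d (76.1 to 149, 37 UMIs) and 46.3 in ShamRT-28d (23.9 to 80.9, 12 UMIs). Nrxn3 in the same nuclei was at 4870 and 7410 CPM, Nlgn1 at 3041 and 4787 CPM and Lrrtm4 at 3988 and 2299 CPM.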
